A study of Nicotiana tabacum with 12 samples.

Results

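SUT1 (LOC107831792) and Hxk1 (LOC107797523) are 2 of the 61526 genes in a table of RNA sequencing read counts from burley tobacco leaves. SUT1 was lower in every library of 3 transgenic lines than in every untransformed library, as were 1.73% of all tested genes. Its mean was 97.4 against 146 CPM, the read count scaled to a common library size. The mean of Hxk1 was 8.48 CPM in line P2.4a and 5.71 CPM in P9.10a, against 3.95 CPM in untransformed plants and 3.87 CPM in P3.9a. Both genes were picked by identifier after earlier results of these data were known, so their differences from untransformed plants are given as descriptions.

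The plants were Nicotiana tabacum of the burley cultivar TN90, called TN 90LC in the labels' protocol, grown in the field, and the leaves were taken from the top of the plant before they matured. The control group, CK in the labels, was wild type with no genetic modification. The 3 lines, P9.10a, P3.9a and P2.4a, overexpressed NtYb1, also called NtEGY2, from a 35S promoter, which drives expression in most plant tissues, and each was a green-stem segregant from a primary transformant, so a line is 1 transformation event. All groups shared the TN90 background, and each had 3 libraries that the labels call biological replicates; the number of plants behind a library is not stated, so p-values measure the spread between these libraries. For the P3 event the protocol has 4a where titles have 9a, and it also holds wording on inoculated roots; titles and the tissue field were followed here.

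In a source leaf, photosynthate is made into sucrose in the mesophyll and moved to the phloem for export. SUT1 belongs to the sucrose-proton symporters, plasma membrane carriers that in solanaceous plants load sucrose from the leaf apoplast into the phloem. Hexokinases phosphorylate glucose and other hexoses set free by invertases, which commits them to glycolysis, starch or new sucrose, and in Arabidopsis a hexokinase also acts as a glucose sensor. SUT1 is also listed in the reference as NtSUT1-S and NtSUT1b, and Hxk1 as NtHxk. The other symbols with the SUT or Hxk stem are SUT3, Hxk1a, Hxk3, Hxk4a, Hxk4b and Hxk6. Tobacco is an allotetraploid, so reads of a near-identical copy without a symbol could be shared between it and either gene.

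Libraries held 13536964 to 18444571 counts. The leaf label was checked against 10 mesophyll genes, all of which were detected, with a summed level of 14976 CPM or more in each library. The root genes PMT1, PMT2 and PMT3 and the flower gene GLO were at 0 in all 12 libraries. PMT4, MPO1 and AG1 of the same lists had at most 1 count. The other members were detected. The root genes QPT2A and TobRB7 had 628 to 1215 and 8 to 29 counts, and the flower genes FUL1 and FUL2 had 399 to 1114 and 5 to 50. P3.9a replicate 1 stood apart from the other libraries, at -77.4 on a first principal component that held 26.3% of the variance, and CK replicate 3 stood at 62.8 on the second. The transgene's own level is not analysed here, because its gene was not found by symbol.

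SUT1 was read deeply in all libraries. In CK it had 2247, 2537 and 2493 counts, which scale to 138, 141 and 160 CPM. The levels of P2.4a were 105, 88.2 and 88.0 CPM. Those of P3.9a were 110, 98.2 and 101 CPM, and those of P9.10a were 95.6, 105 and 85.9 CPM. The highest transgenic library thus lay below the lowest CK library, with no overlap in 9 of 9 transgenic libraries, as was so for 1.73% of all tested genes. In bulk leaf RNA, fewer cells of a type and less RNA per cell cannot be told apart.

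The group means of SUT1 were 146 ± 12.2 CPM in CK (SD, n = 3), 103 ± 6.15 in P3.9a, 95.6 ± 9.61 in P9.10a and 93.6 ± 9.52 in P2.4a. Counting error alone was small beside these gaps: the exact Poisson 95% interval ran from 132 to 144 CPM in the lowest CK library and from 105 to 115 CPM in the highest transgenic library. These intervals cover counting error only, as reads are not independent molecules. Among the 3 lines the order of means is within the spread of their libraries.

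**Figure D1:**
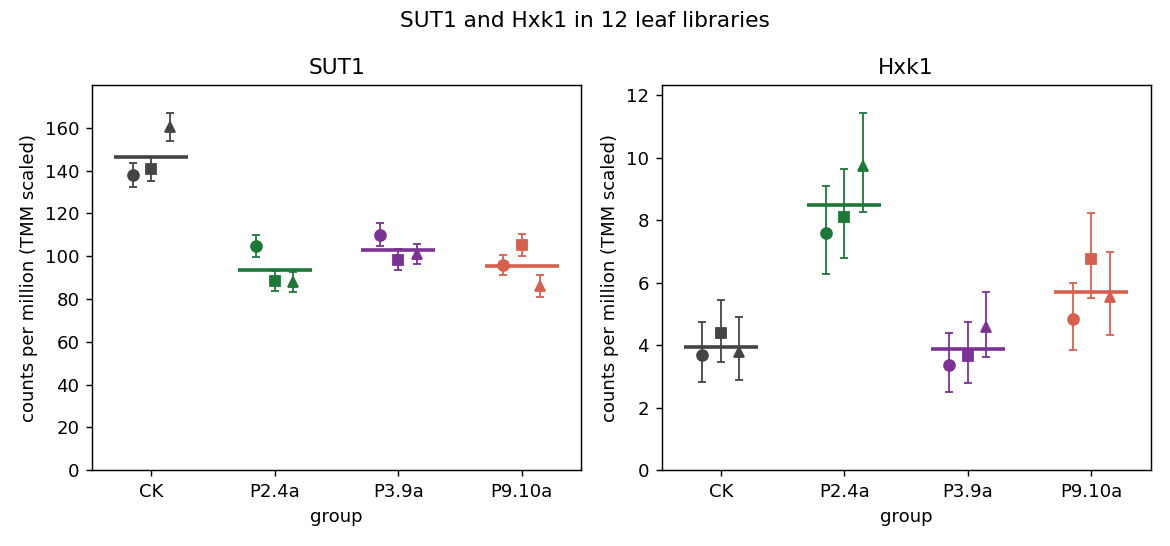
Level of SUT1 (left) and Hxk1 (right) in CPM after TMM scaling, by group. Each point is 1 library (circle, square and triangle for replicates 1, 2 and 3) with its exact Poisson 95% interval, and the horizontal lines are means of 3 libraries. The SUT1 points of all lines lie at 110 CPM or below and those of CK at 138 CPM or above, while Hxk1 is highest in P2.4a and overlaps between CK and P3.9a.

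The fitted log2 change of SUT1 was -0.59 (SE 0.11) for the mean of the 3 lines minus CK, or 0.666 times the CK level. By line it was -0.64 (SE 0.13) in P2.4a, -0.61 (SE 0.13) in P9.10a and -0.51 (SE 0.13) in P3.9a. The 3 comparisons share the same CK libraries. In each line all 3 libraries lay below all CK libraries, as was so for 6.61% of all tested genes in P3.9a, 7.71% in P9.10a and 9.99% in P2.4a. SUT1 was chosen on the mean of the lines, where its edgeR adjusted p of 0.0570 ranked 2nd among the 906 tested genes with a symbol and missed the threshold of 0.05. Of all 39207 tested genes, 0.0306% passed, lower, in this comparison, and 1.73% had all 9 transgenic libraries below all 3 CK libraries. Nothing is read from those shares, because the gene was chosen on this contrast. The tool and the library that stood apart decide on which side of the threshold SUT1 falls: DESeq2 gave an adjusted p of 1.32e-05, edgeR without a low-count filter 0.0387, and edgeR without P3.9a replicate 1 gave 0.0117 with a log2 change of -0.60. Over all alternatives run the adjusted p ran from 1.32e-05 to 0.485, the latter in edgeR without CK replicate 3. The direction held in each of these fits, and the log2 change lay between -0.63 and -0.52 with any 1 library left out.

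Whether the lines differ from each other in SUT1 was not part of how it was chosen. The spread pooled over all 12 libraries, against which this is tested, did enter the contrast that chose it. No difference among the 3 lines was found (edgeR F test, unadjusted p = 0.558, adjusted p = 1.00), in a comparison where 0.00765% of all genes passed. The pairwise log2 differences were -0.14 for P2.4a minus P3.9a (95% interval -0.42 to 0.14), -0.03 for P2.4a minus P9.10a (-0.31 to 0.25) and 0.11 for P3.9a minus P9.10a (-0.18 to 0.39). With 3 libraries a line, true differences of any size within these intervals are not excluded.

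Of 3 phloem and vascular genes, none passed the test, where 0.0383% of all tested genes passed for the mean of the lines. SEO1 and SEO2, which encode sieve element occlusion proteins, and COV1, named for a vascular patterning gene of Arabidopsis, had log2 changes of 0.14 (SE 0.12), 0.18 (SE 0.10) and 0.06 (SE 0.11) for the mean of the lines. SEO2 stood at 93.6, 113 and 89.4 CPM in CK and at 102 to 118 CPM, with a median of 113, in the 9 transgenic libraries. The summed level of the 3 genes ran from 175 to 220 CPM in CK, 213 to 246 in P2.4a, 205 to 219 in P9.10a and 214 to 225 in P3.9a. Within a library, a ratio of counts does not depend on the scaling between libraries. There were 0.755, 0.665 and 0.965 SUT1 counts for each SEO1 or SEO2 count in CK, and 0.374 to 0.538, with a median of 0.479, in the transgenic libraries. The ratio separated the 9 transgenic from the 3 CK libraries. It holds the SUT1 counts on which the gene was chosen, so nothing further is read from this. It is also not a comparison of the levels of these genes, whose lengths differ. The part of phloem cells in the level of SUT1 was not tested.

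**Figure D2:**
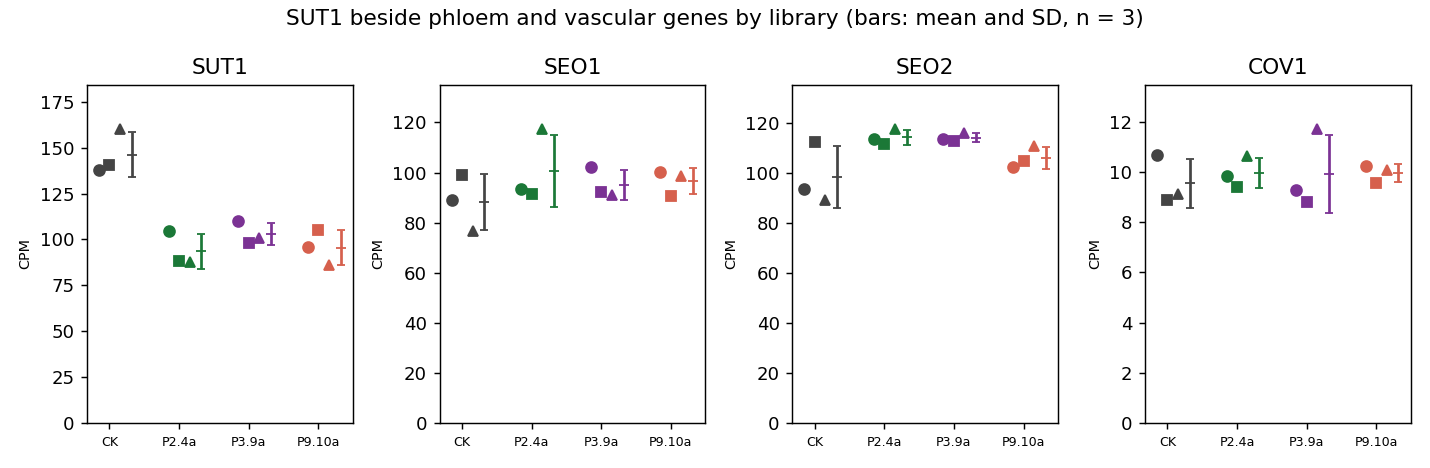
SUT1 beside the phloem and vascular genes SEO1, SEO2 and COV1 in CPM after TMM scaling. Points are libraries (circle, square and triangle for replicates 1, 2 and 3), and the bars to their right are mean and SD of 3 libraries. SUT1 has all lines below CK, while the lines overlap CK in the other genes, except that SEO2 in P3.9a lies just above CK.

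Of 4 senescence genes, 2 were detected and neither passed the test, where 0.0383% of all tested genes passed for the mean of the lines. The summed level of these 2, NTCP-23 and SEN4, was 53.9 to 58.7 CPM in CK, 38.9 to 41.4 in P2.4a, 33.9 to 47.8 in P9.10a and 41.8 to 52.3 in P3.9a. SAG12 and CP1, cysteine proteases of late senescence, were at 0 in all libraries. The cysteine protease gene NTCP-23 lay at 36.7 to 38.1 CPM in CK and 23.9 to 34.9 CPM in the lines. It lay below CK in 9 of 9 libraries, as did 1.73% of all tested genes. Its log2 change for the mean of the lines was -0.32 (SE 0.10, edgeR adjusted p = 0.234). In P3.9a alone the log2 change of NTCP-23 was -0.14 (SE 0.12). SEN4 had -0.58 (SE 0.18; edgeR adjusted p = 0.238) for the mean of the lines, with 8 of 9 libraries below CK and P3.9a replicate 1, at 18.6 CPM, above the lowest CK library, at 15.7 CPM. The share of all tested genes with 8 of 9 libraries below CK was not counted. The part of leaf age in the level of SUT1 was not tested.

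A trichome gene, NtABS, which encodes the abienol synthase of glandular trichomes, did pass in P3.9a, as did 0.0357% of all tested genes in either direction. It stood at 62.3 to 68.8 CPM in CK, 61.2 to 88.1 in P2.4a, 98.5 to 114 in P9.10a and 114 to 136 in P3.9a, above all CK libraries in 8 of 9 transgenic libraries. The log2 change was 0.92 (SE 0.15; edgeR adjusted p = 0.0413) in P3.9a, 0.72 (SE 0.14; 0.198) in P9.10a, 0.18 (SE 0.14; 0.688) in P2.4a and 0.60 (SE 0.12; 0.0760) for the mean of the lines. The share of all tested genes above CK in 8 of 9 libraries was not counted. NtABS was the only trichome gene in the list, and the part of trichomes in the levels of SUT1 and Hxk1 was not tested.

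Hxk1 was read at a far lower count, so each value carries a wide counting error. In CK it had 60, 79 and 59 counts, or 3.68, 4.38 and 3.79 CPM. In P2.4a it had 117, 130 and 154 counts, or 7.58, 8.11 and 9.75 CPM. In P9.10a it had 82, 102 and 72 counts, or 4.83, 6.77 and 5.54 CPM. In P3.9a it had 52, 57 and 80 counts, or 3.35, 3.67 and 4.57 CPM.

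The 3 P2.4a libraries stood above the other 9 libraries, the 3 P9.10a libraries stood between P2.4a and the rest, and P3.9a overlapped CK. The group means, from low to high, were 3.87 ± 0.633 CPM in P3.9a (SD, n = 3), 3.95 ± 0.376 in CK, 5.71 ± 0.980 in P9.10a and 8.48 ± 1.13 in P2.4a. P3.9a and CK do not differ beyond their spread. For the closest pair of libraries, the gap between CK and P9.10a lay within counting error. The exact Poisson 95% interval was 3.47 to 5.46 CPM for CK replicate 2, the highest of CK. For P9.10a replicate 1, the lowest of P9.10a, it was 3.84 to 5.99 CPM. The interval of P9.10a replicate 3, 4.33 to 6.98 CPM, also overlapped those of CK. That of P9.10a replicate 2, 5.52 to 8.21 CPM, lay above those of all CK libraries.

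The fitted log2 change of Hxk1 was 1.10 (SE 0.18) in P2.4a minus CK, a level 2.14-fold higher. It was 0.53 (SE 0.19) in P9.10a and -0.03 (SE 0.19) in P3.9a, and 0.53 (SE 0.16) for the mean of the 3 lines. These comparisons share the CK libraries. All 3 P9.10a libraries lay above all CK libraries, as did those of 6.46% of all tested genes. Hxk1 was chosen on P2.4a minus CK, where its edgeR adjusted p of 0.190 ranked 1st among the 906 tested genes with a symbol and did not pass. Of all tested genes, 0.00255% passed, higher, in that comparison, 9.3% had all 3 P2.4a libraries above all 3 CK libraries and 0.518% had them above the other 9 libraries. As for SUT1, nothing is read from these shares. DESeq2 gave an adjusted p of 0.00123, edgeR on the 6 libraries of P2.4a and CK gave 0.0151, and edgeR without P3.9a replicate 1 gave 0.0358, each with a log2 change of 1.10. Over all alternatives run the adjusted p ran from 0.00123 to 0.545, the latter in edgeR without CK replicate 3.

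Of the differences between lines, P3.9a minus P9.10a compares no group that stood in the contrast that chose Hxk1. Both rest on a spread pooled over all 12 libraries, so the SE and p of this difference are not independent of the choice. The log2 difference was -0.56 (SE 0.19; 95% interval -0.96 to -0.15), with an edgeR unadjusted p of 0.00992 and an adjusted p of 0.999, so it did not pass over all genes; 0.0051% of all genes did, in either direction. Without P9.10a replicate 2, the highest library of that line, the difference was -0.42. The other differences involve P2.4a and are descriptions: P2.4a stood above P3.9a by 1.13 (SE 0.18) and above P9.10a by 0.57 (SE 0.18) on the log2 scale.

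Of 7 markers of dividing cells, none passed in edgeR in any comparison. Their summed level was 99.2 to 116 CPM in CK, 120 to 185 in P2.4a, 107 to 139 in P9.10a and 119 to 143 in P3.9a, so the lines overlapped each other. In edgeR, 3 of the 7 had an unadjusted p under 0.05 for the mean of the lines and 3 for P2.4a minus CK, all higher. Over all tested genes it was 11.4% and 10.3%, in either direction. For P2.4a minus P9.10a 1 of the 7 had such a p, beside 2.56% of all genes, and for P2.4a minus P3.9a none did. All 7 had a positive log2 change in P2.4a against CK, P9.10a and P3.9a. For P3.9a minus CK, where Hxk1 had -0.03, the change was also positive for all 7. For P9.10a minus CK it was positive for 6 of the 7. Each of these comparisons had 2 of the 7 with an unadjusted edgeR p under 0.05, both higher. Beside them stood 8.57% of all tested genes for P3.9a and 7.17% for P9.10a, in either direction. How many of all tested genes had a positive change was not counted. A gene with the symbol cyclin (LOC107793085) and CycD3.1, a D-type cyclin, lay above CK in 9 of 9 transgenic libraries, the P3.9a libraries among them, as did 0.9% of all tested genes, and neither passed in edgeR over all genes. The part of dividing cells in the level of Hxk1 was not tested.

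The pattern of Hxk1 passed no test in the other hexokinase genes. None of the 5 passed in edgeR in any comparison with CK or between lines, none had an unadjusted p under 0.05 there, and DESeq2 and limma called none in the 6 comparisons tabulated. Hxk1a stood at 19.4 ± 1.49 CPM in CK, 17.4 ± 0.423 in P2.4a, 18.7 ± 1.69 in P9.10a and 17.4 ± 1.39 in P3.9a. Hxk3 stood at 26.5 ± 0.829 CPM in CK and 26.0 ± 2.37 in P2.4a, and its log2 change in P2.4a was -0.02 (SE 0.14). Hxk6 had means of 2.76 CPM in CK, 4.52 in P2.4a, 4.06 in P9.10a and 2.85 in P3.9a, in the same order of P2.4a and P9.10a above the others as Hxk1. Its libraries ran from 2.05 to 3.21 CPM in CK, from 3.42 to 6.18 CPM in P2.4a and from 2.65 to 6.54 CPM in P9.10a, so that P9.10a overlapped both. Its log2 change in P2.4a was 0.72 (SE 0.37), short of the threshold.

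Hxk4a and Hxk4b were near the floor of detection. Hxk4a had 3 to 26 counts per library and a log2 change of 0.88 (SE 0.46) for the mean of the lines, and Hxk4b had 6 to 31 counts and -0.23 (SE 0.36). In counts of all 6 hexokinase genes together, Hxk1 made up 7.24% ± 0.877 in CK (SD, n = 3), 7.72% ± 1.14 in P3.9a, 10.2% ± 1.27 in P9.10a and 14.5% in P2.4a. This share, which does not depend on the scaling between libraries, ran from 12.8% to 17.3% in P2.4a and from 6.68% to 8.25% in CK. It holds the Hxk1 counts on which the gene was chosen, so nothing further is read from it. SUT3, a pollen sucrose transporter, was at 0 to 4 counts and was not tested.

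**Figure D3:**
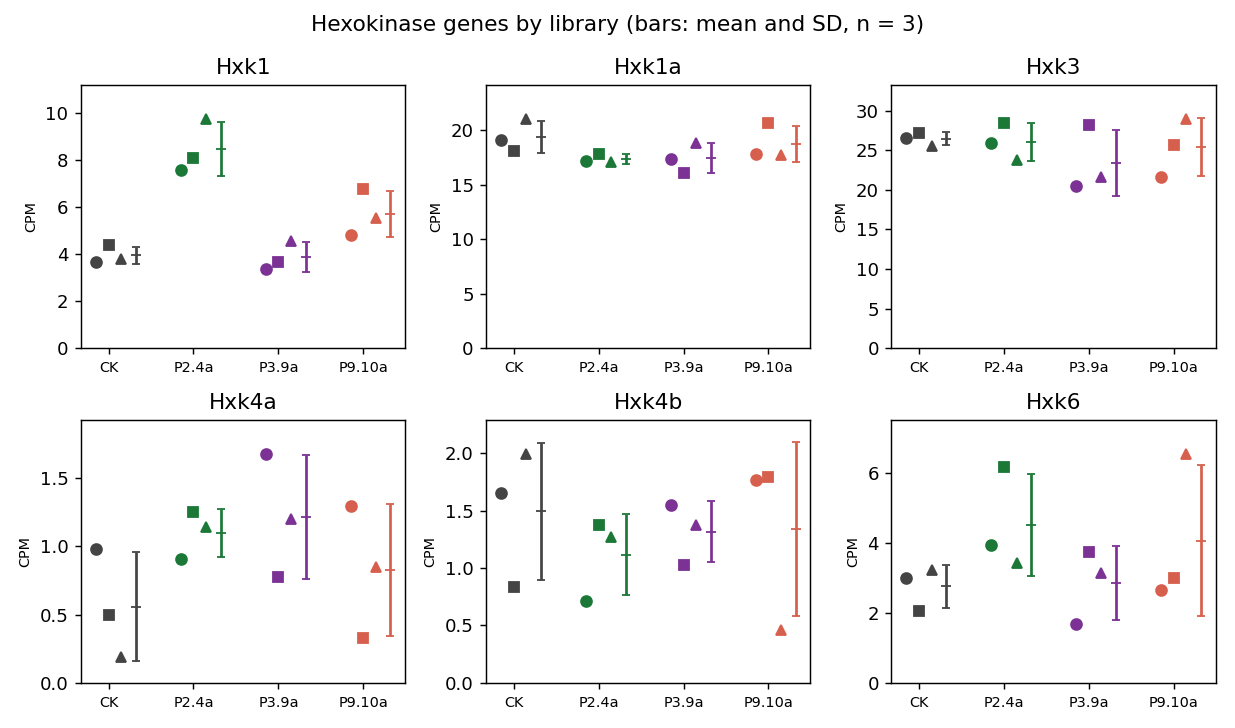
Levels of the 6 genes with a hexokinase symbol in CPM after TMM scaling, each panel with its own axis from 0. Points are libraries (circle, square and triangle for replicates 1, 2 and 3), and bars are mean and SD of 3 libraries. Hxk1 separates P2.4a from the other groups, while Hxk1a and Hxk3 stay between 16.1 and 28.9 CPM, with P2.4a just below CK in Hxk1a, and Hxk4a, Hxk4b and Hxk6 scatter within groups.

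The rest of the sucrose and hexose route was read from 22 genes with a fitting symbol, SUT1 and Hxk1 included, of which 19 were tested. None passed in edgeR for the mean of the lines minus CK, against 0.0383% of all tested genes in either direction. At an unadjusted p under 0.05 in edgeR stood 6 of the 19, 5 lower and 1 higher (11.4% of all tested genes). Without SUT1 and Hxk1 it was 4 of 17, all lower, and the median log2 change of these 17 was -0.07 beside 0.00 for all genes. DESeq2 called 2 of the 19, SUT1 and vi, among 453 genes that it called over the whole table, and limma called none. In edgeR over all 12 libraries none of the 19 passed by line either, where 0.0357% of all genes passed in P3.9a, 0.0128% in P9.10a and 0.00765% in P2.4a. DESeq2 called SUT1 in P2.4a, P9.10a and P3.9a (adjusted p = 0.000774, 0.00108 and 0.0123) and Hxk1 in P2.4a. Over the whole table DESeq2 called 153 genes in P9.10a and 244 in P3.9a, and its count in P2.4a is given with the alternatives below. In edgeR on the 6 libraries of P2.4a and CK, SUT1 (adjusted p = 0.0436) and Hxk1 were called, among 238 genes over the whole table.

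In sucrose cleavage, vi, the symbol of a vacuolar invertase, had 91.0, 85.9 and 82.1 CPM in CK and 69.1 to 76.1 CPM, with a median of 72.0, in the 9 transgenic libraries. All transgenic libraries lay below CK, as for SUT1 and for 1.73% of all tested genes. The log2 change of vi for the mean of the lines was -0.25 (SE 0.09, edgeR adjusted p = 0.282, DESeq2 adjusted p = 0.0389). Ntbfruc1, another gene of the invertase family, had 2 to 18 counts and a log2 change of -0.25 (SE 0.52). Nin88, an invertase known from anthers, had 1 to 10 counts and was not tested.

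In sucrose synthesis, SPSA and SPSC, which encode sucrose-phosphate synthase, had log2 changes of -0.29 (SE 0.11) and -0.71 (SE 0.31) for the mean of the lines and did not pass. SPSC varied widely within lines, from 15.7 to 53.2 CPM, with 8 of 9 libraries under the lowest of CK. How many of all tested genes had 8 of 9 libraries there was not counted. The sucrose-phosphate phosphatase genes SPP1 and SPP2 had -0.07 (SE 0.12) and 0.05 (SE 0.14). In hexose transport, MST1, a monosaccharide transporter, had 0.15 (SE 0.13). In hexose phosphorylation beside the hexokinases, the fructokinase FRK2 had 0.02 (SE 0.13), and FRK4 had at most 1 count. In starch synthesis, agpL3, a large subunit of ADP-glucose pyrophosphorylase, had 0.02 (SE 0.10). Of the genes around trehalose, a sugar signal in plants, the trehalase NtTRE had -0.47 (SE 0.21) and NtTPP and NtTPS had 0.06 and 0.04; none of these passed.

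**Figure D4:**
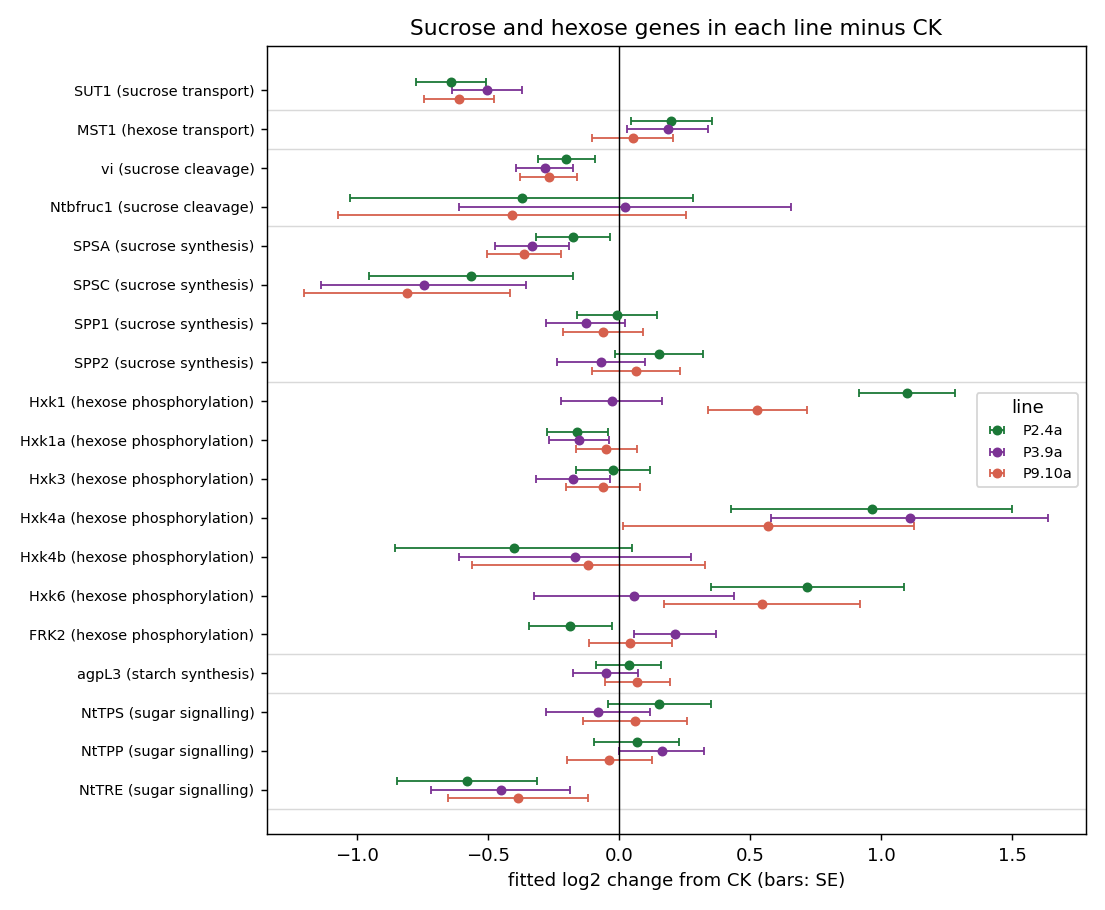
Fitted log2 change from CK in each line for the 19 tested genes of sucrose and hexose metabolism, ordered by role; bars are standard errors and the vertical line marks no change. SUT1 lies near -0.6 in all 3 lines, Hxk1 is at 1.10 in P2.4a, 0.53 in P9.10a and -0.03 in P3.9a, and none of the points passes over all genes in edgeR.

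Other genes shared the pattern of SUT1 over the 12 libraries. Among 33205 genes with a mean log2 CPM of 1 or more, those with the highest Pearson correlation of log2 CPM were LOC107801121 (r = 0.98), LOC107791352 (0.964), LOC107797122 (0.960), LOC107823890 (0.956) and LOC107765435 (0.951), none with a symbol. All 5 lay below CK in 9 of 9 transgenic libraries, as did 1.73% of all tested genes. Nothing is read from this, because they were picked for likeness to SUT1, which has the same order. LOC107801121 went from 11.7 to 13.9 CPM in CK to 8.29 to 10.5 CPM in the lines. Among genes with a symbol they were CCD1-1, a carotenoid cleavage dioxygenase (r = 0.942), CIP1 (0.916) and GAPC1, a cytosolic glyceraldehyde-phosphate dehydrogenase (0.882). CCD1-1 stood at 206 to 229 CPM in CK and 155 to 192 CPM in the lines. These correlations are descriptions over libraries that share 4 groups and a common scaling, picked as the highest of many.

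After the group means were subtracted, which leaves only the scatter within groups, CCD1-1 was again among the 3 closest genes with a symbol (r = 0.880), beside TIMPb, a proteinase inhibitor (0.883), and TSS (0.879). Of the sugar genes NtTRE had 0.70 with SUT1 over all libraries and 0.69 within groups. For vi the sign turned, from 0.73 over all libraries to -0.59 within groups.

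For Hxk1 the closest genes were LOC107760047 (r = 0.899), LOC107811312 (0.872), LOC107796152 (0.860), AS1 (LOC107829769; 0.860) and LOC107831282 (0.854). The closest genes with a symbol were AS1, NtGPDL (0.853) and NtEIG-D48 (0.810). LOC107760047 stood at up to 2.99 CPM in CK and at 4.01, 3.99 and 4.62 CPM in P2.4a. Within groups a different set came first, led by LOC107811601 (0.942), and by ERS (0.801), dtc1 (0.782) and opr3 (0.731) among genes with a symbol. At the low counts of Hxk1, scatter within groups is in part counting error. SUT1 and Hxk1 had r = -0.59 over the 12 libraries, which holds the contrasts that chose them, and -0.13 within groups.

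The genes that border SUT1 and Hxk1 in the reference passed no test. Next to SUT1, LOC107831791 had no count in any library, and LOC107831794 had 21 to 58 counts and a log2 change of 0.25 (SE 0.23) for the mean of the lines. Next to Hxk1, LOC107797522 had 3 to 31 counts and a log2 change in P2.4a of 0.68 (SE 0.52), and LOC107797524 had -0.45 (SE 0.48). The other 4 of the 8 neighbours looked up are not analysed here.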

How the data were processed

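The deposited values are raw read counts for each gene and library (12 libraries), whole numbers that the authors had not scaled. HISAT2 2.1.0, SAMtools and bedtools 2.25.0 are named per the submitters' processing notes. Genome build, annotation and counting rule are not stated there, and coordinates are left out. The library kit was directional per the labels' protocols, but whether counting used strand is not stated. Names came from a reference gene table of assembly ASM71507v2, which held 49014 of the 61526 identifiers; 1081 had a symbol or synonym. Identifiers absent from it held 4.43% of counts.

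Counts were fitted with edgeR 4.0.16 in R 4.3.3: filterByExpr (minimum count 10), TMM scaling, robust quasi-likelihood fits of all 12 libraries (8 residual degrees of freedom, common coefficient of variation 16.4%) and Benjamini-Hochberg adjustment over 39207 genes at 0.05. DESeq2 1.42.0, limma 3.58.1 (voom), other scalings, no filter, a replicate block, the compared groups alone and 1 library left out in turn were alternatives. Log2 CPM for correlations used a prior count of 2. All pairs of libraries differed by more than sampling noise (chi-square of at least 5.09 per degree of freedom). Relatives were planned by protein sequence; with no protein table used here, they are the genes that share a symbol stem. Symbols shared with unrelated genes were left out of the lists. Named genes are both genes, their relatives, for each role list the 2 members with the smallest p for the mean of the lines unless one passed, the closest genes by correlation and the neighbours; SPP1, SPP2, FRK2, FRK4, Nin88, NtTPS, the phloem, trichome, senescence and dividing-cell genes were named beside them after their values were seen. The members and lists were chosen with earlier results of these data known.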

Additional observations from a re-analysis of the deposited data

How the results depend on the processing

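Every log2 change of SUT1 and Hxk1 from CK moved by less than the spread between replicates (pooled SD 0.125 for SUT1 and 0.199 for Hxk1) under each alternative run; Hxk1 in P3.9a, near 0, ran from -0.17 to 0.08. Left-out libraries gave -0.63 to -0.52 for SUT1 in the mean of the lines and 0.99 to 1.18 for Hxk1 in P2.4a. SUT1 among lines and Hxk1 in P3.9a minus P9.10a did not pass in any. Counts over all genes moved; the cause was not tested. For the mean of the lines 15 genes became 453 in DESeq2, 6 with library totals only, 82 without a filter and 6 to 740 with 1 library left out (740 without P3.9a replicate 1, 6 without CK replicate 1). For P2.4a, 3 became 138 in DESeq2, 1 in limma, 238 on the compared groups and 0 to 56. For P3.9a, 14 became 244 in DESeq2, 22 with totals only, 33 without a filter, 6 in limma, 5 with the replicate block, 3 on the compared groups and 5 to 105. For P9.10a, 5 became 153 in DESeq2, 9 without a filter, 16 on the compared groups and 1 to 12. For P3.9a minus P9.10a, 2 became 13 in DESeq2, 1 on the compared groups and 2 to 4; among lines, 3 became 46 in DESeq2 and 2 to 6. Sugar genes, 0 in each comparison, became 2 (DESeq2) and 1 (no filter) for the mean of the lines, 2 (DESeq2) and 2 (compared groups) for P2.4a, and 1 in DESeq2 for P3.9a, for P9.10a and among lines; left-out libraries gave 0 to 1 for the mean and for P2.4a.

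Same-numbered libraries had correlations of deviations from -0.309 to 0.265 (median -0.0975), with 4 of 18 over 0.1. Libraries of different numbers had -0.458 to 0.382 (median 0.0206), with 12 of 36 over 0.1, so the numbers were not taken as pairs. With the replicate block the log2 change was -0.59 for SUT1 in the mean of the lines and 1.10 for Hxk1 in P2.4a, and neither passed (edgeR adjusted p = 0.108 and 0.242). The low counts of Hxk1 limit what can be told between CK, P3.9a and P9.10a.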
